A study of Mus musculus with 18 samples.

Results

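The 9 genes described here encode the enzymes and cofactors that write, maintain and erase methylation of cytosine in DNA: Dnmt1, Dnmt3a, Dnmt3b, Dnmt3l, Uhrf1, Tet1, Tet2, Tet3 and Tdg. They were taken by name, with earlier results of these data known, from a deposited table of 24498 genes, and all 9 had a row. RNA came from mouse embryos at embryonic day 7.5 (E7.5), the stage of gastrulation, and was sequenced in 18 libraries, 3 biological replicates for each of 6 groups. Every embryo carried FoxA2, a forkhead transcription factor of node, notochord and endoderm, joined to the red fluorescent protein tagRFP by knock-in on both alleles, so no group had untagged FoxA2. In WT the tagged protein was otherwise intact, and in ΔHx (FoxA2-ΔHx-tagRFP) it lacked 10 amino acids of an α-helix to which the design text gives a role in turning on targets. Cells of each genotype were sorted on red fluorescence. The High gate lay above the signal of heterozygous cells, the Mid gate lay between autofluorescence and the heterozygous maximum, and the Neg gate held cells with no signal. The mice were kept as a mix of the backgrounds C57Bl6/J and CD-1, embryos were not sexed, each sort pooled some 10 homozygous embryos, and their extra-embryonic portion had been removed for genotyping.

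Libraries held 12302196 to 17194136 reads in genes. The tagged gene followed the gates: Foxa2 was between 1556 and 2483 in WT High, 621 and 871 in WT Mid, and 20.3 and 40.6 in WT Neg, and between 1848 and 2385, 547 and 1229, and 43.4 and 62.5 in the same gates of ΔHx. It checks the gates only, since the mutant allele still makes the transcript. Values throughout are normalised read counts, the reads of a gene divided by 1 size factor per library. Means carry ± SD with n = 3 libraries, and changes are differences of log2(value + 1), a scale that understates the change of genes with few reads. Genes were tested if 3 or more libraries reached a value of 10, which held for 8 of the 9 genes, and called at an adjusted p under 0.05 in limma. The gates held different cells. Summed over 9 node and notochord markers, WT High libraries ranged from 35664 to 49667 and WT Neg libraries from 2016 to 3932. Summed over 10 visceral endoderm markers WT Mid ranged from 37747 to 46277 and WT Neg from 1463 to 1627. Summed over 8 markers of parietal endoderm, an extra-embryonic cell type, WT Mid ranged from 40665 to 244823 and WT Neg from 8393 to 8722. Mesoderm markers, 10 in all, ranged in sum from 10148 to 11651 in WT Neg and from 1117 to 2098 in WT High. All 9 genes of the node and notochord list were higher in WT High than in WT Neg. Among them were Cer1 and Sox17, which also mark endoderm, so the list is not specific to node and notochord. Of the 10 visceral endoderm markers 7 were called higher in WT High than in WT Neg and 0 lower. All 10 mesoderm markers, among them Pdgfra and Snai1, were lower in WT High than in WT Neg. Epiblast markers were mixed: of 12, 5 were called higher and 7 lower in WT High than in WT Neg. For all tested genes these shares were 22.6% and 21.8%. The epiblast sum ranged from 17746 to 19497 in WT High and from 10631 to 11558 in WT Neg. In bulk samples of this kind fewer cells of a type and less RNA per cell cannot be told apart.

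DNA methylation is set up anew in the epiblast around implantation and is then copied at each round of DNA replication. Dnmt3a and Dnmt3b are the de novo methyltransferases, and Dnmt3l is a catalytically inactive partner that stimulates them. Dnmt1 copies methylation onto the newly made strand, to which Uhrf1 guides it by binding hemimethylated CpG sites. The Tet dioxygenases oxidise methylated cytosine, and Tdg, a DNA glycosylase, excises the more oxidised forms so that base excision repair can restore the unmodified base. Methylation itself was not measured, and the values below are RNA levels only.

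In WT, the writers were lower and Tet3 was higher in the High gate than in the Neg gate. Of the 8 tested genes 6 fell from Neg to High, namely Dnmt1, Dnmt3a, Dnmt3b, Dnmt3l, Uhrf1 and Tet1, and 2 rose, namely Tet2 and Tet3. The background of that contrast is wide, since 44.4% of all 14711 tested genes were called in it, 22.6% higher and 21.8% lower, and the libraries of the 2 groups did not overlap for 54.7% of genes. Between Neg and Mid 4 fell (Dnmt1, Dnmt3a, Dnmt3b and Uhrf1) and 1 rose (Tet3), where 32.9% of all genes were called, 17.4% higher and 15.4% lower, and 44.6% did not overlap. Between Mid and High 4 fell (Dnmt3b, Dnmt3l, Uhrf1 and Tet1) and 1 rose (Tet3), where 24.4% were called, 12.1% higher and 12.4% lower, and 35.4% did not overlap. The contrasts of one genotype share libraries and are not independent of each other. In ΔHx 6 fell and 1 rose from Neg to High, where 42.6% of all genes were called, 21.5% higher and 21.1% lower, and 54.7% did not overlap. In the step from Neg to Mid 4 fell and 1 rose, against 34.3% of all genes called, 17.9% higher and 16.5% lower, with 50.6% not overlapping. In the step from Mid to High 3 fell and 1 rose, against 25.6% called, 13.3% higher and 12.3% lower, with 39.1% not overlapping. The median change from Neg to High was -0.49 over the 8 genes in WT and -0.58 in ΔHx, against 0.02 and 0.01 over all tested genes.

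**Figure D1:**
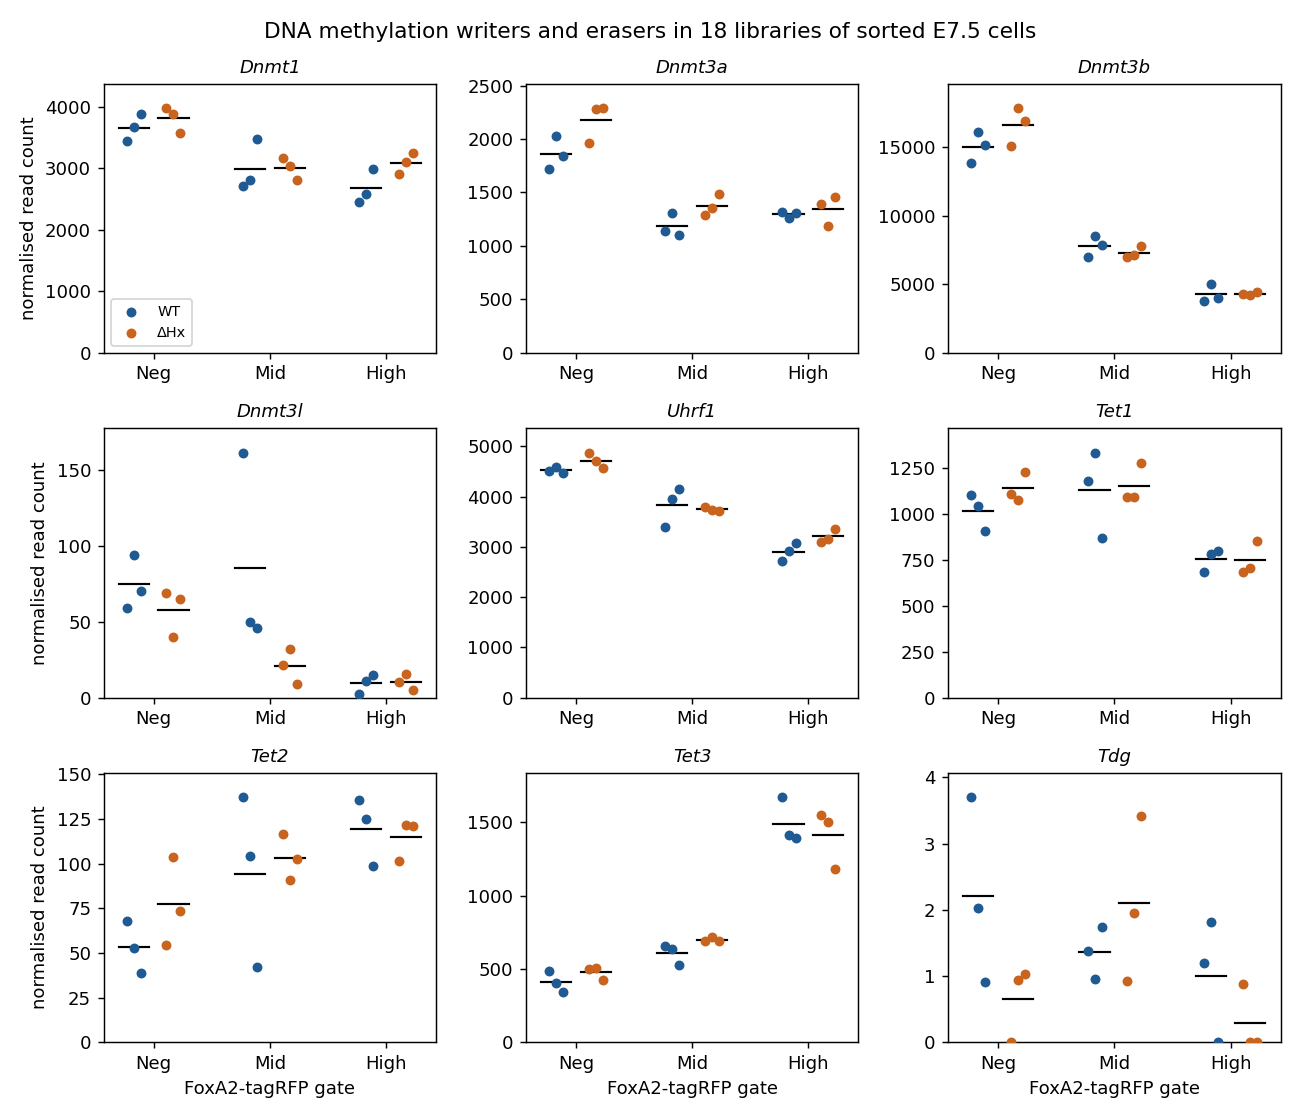
Normalised read counts (y axis, from 0, with its own range in each panel) of the 9 genes in the Neg, Mid and High gates (x axis), 1 point for each of the 18 libraries and a line at each group mean. Dnmt3b steps down from Neg (13846 to 17829) over Mid to High (3803 to 4984), Tet3 steps up from 345 to 507 in Neg to 1180 to 1669 in High, and Tdg stays between 0 and 3.70.

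Dnmt3b (mm10, chromosome 2, 153649450 to 153687730, plus strand) was the most abundant of the 9 per kilobase of exon in all 6 groups. In the WT Neg libraries it stood at 13846, 16065 and 15152, in WT Mid at 6966, 8498 and 7823, and in WT High at 3803, 4984 and 4024. In ΔHx it stood at 15045, 17829 and 16913 in Neg, at 6998, 7125 and 7776 in Mid, and at 4252, 4198 and 4408 in High. The 3 gates did not overlap in either genotype, while the 2 genotypes overlapped in every gate. From Neg to High Dnmt3b fell by 1.82 on the log2 scale in WT (SE 0.10, adjusted p = 6.58e-11), a 3.53-fold difference, and by 1.95 in ΔHx (adjusted p = 4.07e-11), a 3.86-fold difference. From Neg to Mid it fell by 0.95 in WT (adjusted p = 6.79e-07) and by 1.18 in ΔHx (adjusted p = 5.28e-08). From Mid to High it fell by 0.87 in WT (adjusted p = 4.27e-06) and by 0.77 in ΔHx (adjusted p = 1.52e-05). All of these calls held under every alternative tried and without each library in turn. Dnmt3c, a germline paralogue next to Dnmt3b, has the same bases in 7.23% of the 75-base windows of Dnmt3b transcripts, a length equal to that of the reads.

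The promoters of Dnmt3b and Tet3, whose calls held at every step between gates and under every alternative, are shown from RefSeq (GRCm38.p6), from 250 bases before to 50 bases after the start of transcription and in the direction of the gene, with CpG dinucleotides, the sites of methylation, in capitals.
Dnmt3b, chr2:153649199-153649498, plus strand: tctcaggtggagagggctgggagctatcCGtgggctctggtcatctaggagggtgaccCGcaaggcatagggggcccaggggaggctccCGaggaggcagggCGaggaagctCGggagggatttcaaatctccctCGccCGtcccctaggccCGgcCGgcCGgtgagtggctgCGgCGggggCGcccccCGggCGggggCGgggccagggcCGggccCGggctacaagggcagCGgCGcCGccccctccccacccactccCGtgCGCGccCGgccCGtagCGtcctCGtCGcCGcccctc
Tet3, chr6:83441629-83441928, minus strand: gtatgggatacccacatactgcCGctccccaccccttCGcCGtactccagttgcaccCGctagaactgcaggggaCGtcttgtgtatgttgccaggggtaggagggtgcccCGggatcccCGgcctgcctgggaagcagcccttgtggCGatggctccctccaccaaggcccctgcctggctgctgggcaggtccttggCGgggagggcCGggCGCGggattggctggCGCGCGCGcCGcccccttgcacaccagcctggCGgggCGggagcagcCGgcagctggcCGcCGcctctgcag
They hold 30 and 22 CpG dinucleotides, against a median of 7 over 32851 mouse promoters of that length. The forkhead motif TGTTTAC, searched on both strands, is in neither, nor in any of the 16 RefSeq promoters of the 9 genes, and 3.65% of all promoters have it. The Tet3 window is at the only start listed for that gene, which lies inside its annotated span (83362373 to 83459084). Other starts of Tet3 were not examined, and its value pools all forms.

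Dnmt3a (chromosome 12, 3806007 to 3914443, plus strand) was lower in both FoxA2-positive gates than in Neg with no called step between Mid and High. Its WT values were 1718, 2029 and 1844 in Neg, 1140, 1310 and 1103 in Mid, and 1318, 1259 and 1306 in High. In ΔHx they were 1959, 2281 and 2289 in Neg, 1289, 1355 and 1487 in Mid, and 1388, 1184 and 1460 in High. Every Neg library lay above every Mid and High library of both genotypes. Dnmt3a fell from Neg to High by 0.52 in WT (SE 0.10, adjusted p = 0.000374) and by 0.70 in ΔHx (adjusted p = 2.07e-05). From Neg to Mid it fell by 0.65 in WT (adjusted p = 7.73e-05) and by 0.66 in ΔHx (adjusted p = 7.79e-05). Between Mid and High the change was 0.13 in WT (95% interval -0.08 to 0.35) and -0.04 in ΔHx (-0.25 to 0.18), and neither was called. The gene has a long form and a short form from an internal promoter, and the value pools them.

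The ratio of Dnmt3b to Dnmt3a within a library stood apart between the gates. Its log2 was 3.01 ± 0.03 in WT Neg, 2.71 ± 0.11 in Mid and 1.71 ± 0.24 in High (SD, n = 3). In ΔHx the means were 2.93 in Neg, 2.41 in Mid and 1.68 in High. The WT gates did not overlap, and each of the 3 comparisons gave p = 0.1 in an exact two-sided permutation test, the smallest that 3 against 3 libraries can give (adjusted p = 0.18 over 18 tests). Per kilobase of exon, Dnmt3b made up 96.3% of the sum of Dnmt3a and Dnmt3b in WT Neg, 95.5% in Mid and 91.4% in High.

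Dnmt3l (chromosome 10, 78041947 to 78063622, plus strand) had few reads, and its spread was wide. It stood at 59.1, 94.3 and 70.7 in WT Neg, at 162, 49.7 and 46.2 in WT Mid, and at 2.40, 10.9 and 15.1 in WT High. In ΔHx it stood at 69.2, 40.1 and 65.0 in Neg, at 21.4, 32.2 and 9.12 in Mid, and at 10.5, 15.4 and 4.95 in High. High thus had the lowest mean in both genotypes, though the Mid and High libraries of ΔHx overlapped. The 2 genotypes parted only in Mid. From Neg to High Dnmt3l fell by 3.10 in WT (SE 0.61, adjusted p = 0.000367) and by 2.47 in ΔHx (adjusted p = 0.00278). From Mid to High it fell by 3.07 in WT (adjusted p = 0.00091), and the change of -0.91 in ΔHx was not called (adjusted p = 0.292). From Neg to Mid the change was -0.03 in WT (95% interval -1.30 to 1.24) and -1.55 in ΔHx (adjusted p = 0.054, not called). That ΔHx change was called with a pseudocount of 5, with quantile normalisation, with equal totals, in a fit of only the 2 groups, with DESeq2, with the replicate number nested in genotype as a random effect (adjusted p = 0.0415), and without ΔHx Mid replicate 2 (0.0382, and 0.0187 to 0.234 over all alternatives).

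Dnmt1 (chromosome 9, 20907209 to 20959888, minus strand) had the smallest change of the 5 writers from Neg to High in both genotypes. It stood at 3440, 3669 and 3890 in WT Neg, at 2710, 2809 and 3478 in WT Mid, and at 2460, 2586 and 2992 in WT High. The ΔHx values were 3983, 3886 and 3580 in Neg, 3169, 3046 and 2820 in Mid, and 2918, 3107 and 3253 in High. Neg was above High in both genotypes without overlap, and Mid and High overlapped. Dnmt1 fell from Neg to High by 0.46 in WT (SE 0.10, adjusted p = 0.000886) and by 0.30 in ΔHx (adjusted p = 0.0175). The ΔHx call ended with quantile normalisation (adjusted p = 0.463), with either scaling to equal totals, and without ΔHx High replicate 1 (0.0716), ΔHx Neg replicate 1 (0.0687) or ΔHx Neg replicate 2 (0.0542), and over all alternatives the adjusted p was 0.000925 to 0.463. The fall of 0.30 from Neg to Mid in WT (adjusted p = 0.0255) ended in 6 settings, among them the leaving out of WT Mid replicate 1 (0.117), WT Mid replicate 2 (0.0992), WT Neg replicate 2 (0.0648) or WT Neg replicate 3 (0.105), in a range of 0.000265 to 0.117. The fall of 0.34 from Neg to Mid in ΔHx (adjusted p = 0.0113) ended with quantile normalisation and without ΔHx Mid replicate 3 (0.0529) or ΔHx Neg replicate 1 (0.0504), in a range of 0.00147 to 0.0824.

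Uhrf1 (chromosome 17, 56303321 to 56323486, plus strand) fell in steps with tight replicates. It stood at 4520, 4598 and 4469 in WT Neg, at 3403, 3954 and 4163 in WT Mid, and at 2723, 2921 and 3077 in WT High. The ΔHx libraries stood at 4874, 4707 and 4570 in Neg, at 3795, 3726 and 3721 in Mid, and at 3106, 3165 and 3357 in High. The gates did not overlap in either genotype. Uhrf1 fell from Neg to High by 0.64 in WT (SE 0.08, adjusted p = 1.74e-06) and by 0.56 in ΔHx (adjusted p = 1.1e-05), and both calls held under every alternative. The fall of 0.33 from Neg to Mid in ΔHx (adjusted p = 0.00279) ended with quantile normalisation (0.114). The fall of 0.24 from Neg to Mid in WT (adjusted p = 0.0207) ended without WT Mid replicate 1 (0.128) or WT Neg replicate 2 (0.066), with quantile normalisation (0.283) and in a model of the 2 groups alone (0.0877), in a range of 0.00415 to 0.283. The fall of 0.22 from Mid to High in ΔHx (adjusted p = 0.0391) ended without any one of ΔHx High replicates 1 (0.12) and 2 (0.0907) and ΔHx Mid replicates 1 (0.091), 2 (0.0807) and 3 (0.0745), in a range of 0.00451 to 0.689, and with 5 of the other alternatives. With equal totals of all genes the fall from Mid to High in WT was 0.28 in place of 0.40 (adjusted p = 0.186 in place of 0.000791). A processed pseudogene on chromosome X, Gm5648, has the same bases in 10.6% of the 75-base windows of Uhrf1 transcripts.

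Dnmt1 and Uhrf1 act at the replication fork, and genes of DNA synthesis moved in the same direction between the gates. Of 20 S phase genes 19 fell from Neg to High in WT, led by Ccne1 (cyclin E1, by 1.40) and Rrm2 (a ribonucleotide reductase subunit, by 1.34), with a list median of -0.90, and 19 fell in ΔHx. Summed over the 20 genes, WT libraries ranged from 77214 to 78588 in Neg, from 47257 to 58304 in Mid and from 36739 to 47040 in High, and ΔHx libraries 79013 to 84284, 45832 to 55100 and 44464 to 49168 in the same gates. The part of this difference in the values of Dnmt1 and Uhrf1 was not tested. The promoters below are shown because they alone, of the 16 of the 9 genes, hold an E2F-type motif (TTTCCCGC, TTTCGCGC, TTTGCCGC or TTTGGCGC on either strand), in capitals. E2F factors regulate genes of the G1 to S transition. The sequences are from RefSeq (GRCm38.p6), at 1 of 3 listed starts of Dnmt1 and 1 of 2 of Uhrf1.
Dnmt1, chr9:20952574-20952873, minus strand: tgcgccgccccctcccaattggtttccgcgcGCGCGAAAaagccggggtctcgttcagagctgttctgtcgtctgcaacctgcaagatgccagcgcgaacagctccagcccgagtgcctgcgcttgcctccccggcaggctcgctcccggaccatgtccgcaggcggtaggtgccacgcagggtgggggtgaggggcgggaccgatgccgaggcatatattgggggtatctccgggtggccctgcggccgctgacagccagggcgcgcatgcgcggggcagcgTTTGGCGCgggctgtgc
Uhrf1, chr17:56304063-56304362, plus strand: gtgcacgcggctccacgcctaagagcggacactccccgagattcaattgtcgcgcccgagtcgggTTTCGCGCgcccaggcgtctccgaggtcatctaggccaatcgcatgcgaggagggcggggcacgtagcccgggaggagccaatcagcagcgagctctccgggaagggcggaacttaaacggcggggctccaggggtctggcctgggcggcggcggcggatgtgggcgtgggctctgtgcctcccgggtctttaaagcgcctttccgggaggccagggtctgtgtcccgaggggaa
The Dnmt1 window has 2 such motifs and the Uhrf1 window 1, and 2.26% of all 32851 promoters have at least 1. Every form of the motif contains a CpG, and each of the 2 windows holds 33 CpG dinucleotides, against a median of 7 over all promoters. The share of 2.26% is thus not from promoters of like CpG content. A match of letters is a description of the sequence and not a binding site.

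Tet3 (chromosome 6, 83362373 to 83459084, minus strand) rose at each step between gates in both genotypes. It stood at 487, 402 and 345 in WT Neg, at 653, 638 and 527 in WT Mid, and at 1669, 1410 and 1392 in WT High. In ΔHx it stood at 499, 507 and 424 in Neg, at 693, 717 and 690 in Mid, and at 1552, 1504 and 1180 in High. The 3 gates did not overlap in either genotype, and the order was the reverse of that of Dnmt3b. Tet3 rose from Neg to High by 1.86 on the log2 scale in WT (SE 0.14, adjusted p = 2.86e-09), a 3.64-fold difference, and by 1.56 in ΔHx (adjusted p = 4.07e-08), a 2.95-fold difference. The rise from Neg to Mid was 0.57 in WT (adjusted p = 0.00377) and 0.56 in ΔHx (adjusted p = 0.00423). The rise from Mid to High was 1.30 in WT (adjusted p = 1.81e-06) and 1.00 in ΔHx (adjusted p = 2.74e-05). No alternative and no left-out library ended any of these calls.

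Tet1 (chromosome 10, 62804570 to 62908996, minus strand), the eraser best known from pluripotent cells, was lower in High than in Mid or Neg. It stood at 1107, 1043 and 908 in WT Neg, at 1182, 1335 and 873 in WT Mid, and at 687, 785 and 799 in WT High. In ΔHx it stood at 1110, 1080 and 1233 in Neg, at 1091, 1093 and 1277 in Mid, and at 688, 705 and 857 in High. Mid and Neg overlapped in both genotypes, and High lay below both. From Neg to Mid the change was 0.13 in WT (adjusted p = 0.505, and 0.0136 with array weights) and 0.02 in ΔHx (0.946). From Mid to High Tet1 fell by 0.56 in WT (adjusted p = 0.00538) and by 0.62 in ΔHx (adjusted p = 0.00234). The WT call ended in a model of the 2 groups alone (adjusted p = 0.0553). From Neg to High it fell by 0.61 in ΔHx (adjusted p = 0.00144). The fall of 0.43 from Neg to High in WT (SE 0.14, adjusted p = 0.0167) ended without WT High replicate 1 (0.0739), WT Neg replicate 1 (0.0713) or WT Neg replicate 2 (0.0516), and with equal totals without Rn45s, a ribosomal RNA precursor (0.0825), in a range of 0.00527 to 0.0825.

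Tet2 (chromosome 3, 133463679 to 133545139, minus strand) was the least abundant Tet gene. It stood at 67.7, 52.7 and 38.9 in WT Neg, at 137, 104 and 41.8 in WT Mid, and at 135, 125 and 98.4 in WT High. The ΔHx libraries stood at 54.7, 104 and 73.3 in Neg, at 116, 90.7 and 103 in Mid, and at 102, 121 and 121 in High. High and Neg were apart in WT and overlapped in ΔHx. From Neg to High Tet2 rose by 1.18 in WT (SE 0.35, adjusted p = 0.0103), and the change of 0.61 in ΔHx was not called (95% interval -0.13 to 1.34, adjusted p = 0.175). The WT call ended without WT Neg replicate 3 (adjusted p = 0.0563) and with quantile normalisation (0.0754), in a range of 0.000997 to 0.0754, and it moved to 0.77 on the log2 scale with that normalisation. The change from Neg to Mid in WT was 0.69 (adjusted p = 0.142), and it was called with array weights (0.00706) and without WT Mid replicate 3, the library at 41.8, where it was 1.19 (0.00539).

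The shares of Tet1 and Tet3 stood apart between High and the other gates, while that of Tet2 overlapped between WT High (4.14% to 5.27%) and WT Mid (2.74% to 6.56%). Per kilobase of exon, Tet1 made up 70.5% ± 1.88 of the summed Tet level in WT Neg and Tet3 26.2% ± 1.42 (SD, n = 3). In WT High Tet3 made up 61.3% ± 3.69 and Tet1 33.8% ± 4.08. WT Mid stood between them, with 63.4% of Tet1 and 31.9% of Tet3, and the ΔHx means for Tet3 were 26.7%, 34.2% and 60.3% in Neg, Mid and High. The log2 ratio of Tet1 to Tet3 within a library, without division by length, was 1.32 ± 0.12 in WT Neg, 0.88 ± 0.17 in Mid and -0.97 ± 0.27 in High. Each pair of WT gates was apart (exact two-sided permutation p = 0.1, the smallest possible). The summed Tet level per kilobase was 93.7 ± 11.6 in WT Neg and 145 ± 6.22 in WT High. With the longest transcript in place of all exons as the length, Tet3 made up 32.8% in WT Neg and 67.4% in WT High.

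**Figure D2:**
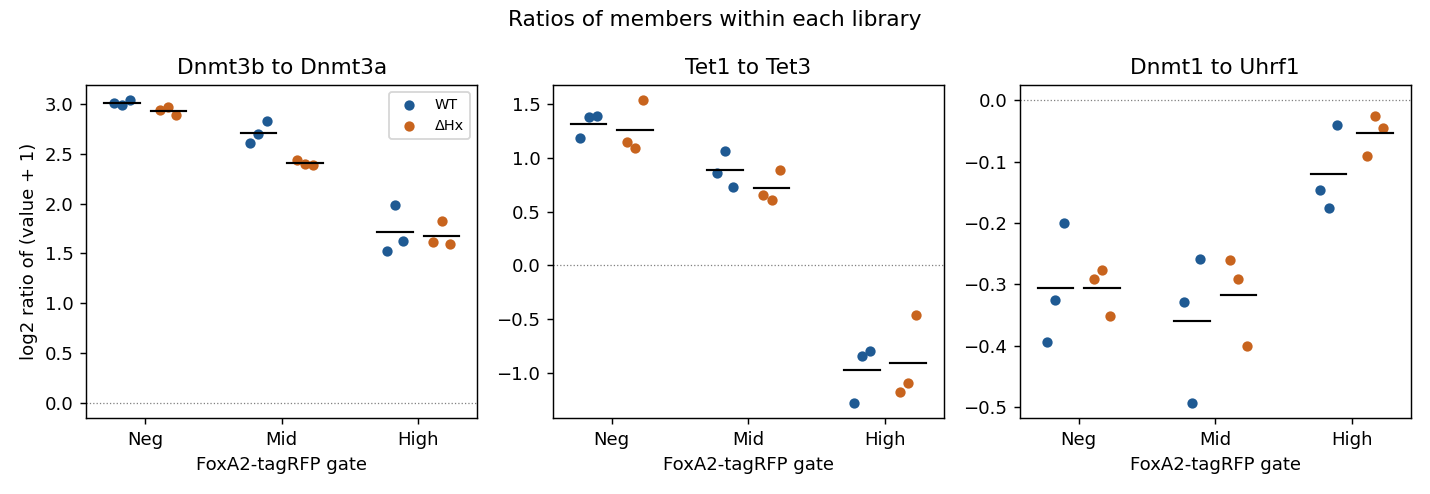
Log2 ratio (y axis, of values + 1) of Dnmt3b to Dnmt3a, Tet1 to Tet3 and Dnmt1 to Uhrf1 within each of the 18 libraries, by gate (x axis) and genotype, with a line at each group mean and a dotted line at 0. The first 2 ratios drop from Neg to High in both genotypes, to 1.71 and -0.97 in WT, and the third lies between -0.49 and -0.03, with all High libraries above those of Neg.

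Tdg (chromosome 10, 82629828 to 82650799, plus strand) was near 0 throughout and could not be tested. It had 0 to 3 reads in a library and 22 reads in all, with 4 libraries at 0 and a highest value of 3.70. A value so low is uncertain for a gene with processed copies. In the annotation (GENCODE M21), 42.9% of the 75-base windows of its transcripts and 77.9% of those of its coding sequence recur at another locus, in the processed pseudogenes Tdg-ps (chromosome 15), Gm9855 (chromosome 10), Gm5597 (chromosome 7) and AC122846.1 (chromosome 19). A read from such a window has more than 1 place of origin, and 37.7% to 41.3% of all that was counted in these libraries was listed as not unique. Both kinds of window are shown, each 75 bases, with positions counted from the first base of the coding sequence and in lower case.
Tdg coding bases 171 to 245, exons 2 to 3, found also in Gm5597, Gm9855 and Tdg-ps: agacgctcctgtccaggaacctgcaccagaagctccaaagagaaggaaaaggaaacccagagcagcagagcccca
Tdg coding bases 1 to 75, exons 1 to 2, found at no other annotated transcript: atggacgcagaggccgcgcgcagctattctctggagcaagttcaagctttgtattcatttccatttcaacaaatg
Gm9855 had 0 reads in all libraries, and Tdg-ps had no row under that name among the deposited genes. Ahcy, with 72.5% of its windows shared, was at 417 to 764. Of the Tdg exons 6.83% also overlap Glt8d2 on the opposite strand, which the library method does not tell apart. Whether Tdg was absent from these cells or its reads were set aside was not tested.

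Compared per kilobase of exon in WT Neg, the 9 genes ranked as Dnmt3b (2942 ± 218), Uhrf1 (1063 ± 15.3), Dnmt1 (497 ± 30.5), Dnmt3a (112 ± 9.39), Tet1 (66.0 ± 6.60), Dnmt3l (25.0 ± 6.00), Tet3 (24.6 ± 4.26), Tet2 (3.15 ± 0.85) and Tdg (SD, n = 3). Dnmt3l and Tet3 did not differ beyond their spread there. In WT High the order was Dnmt3b (836 ± 123), Uhrf1 (683 ± 41.7), Dnmt1 (363 ± 37.7), Tet3 (89.3 ± 9.29), Dnmt3a (77.8 ± 1.87), Tet1 (49.0 ± 3.95), Tet2 (7.08 ± 1.13), Dnmt3l (3.17 ± 2.16) and Tdg. Tet3 thus stood ahead of Tet1 in High and behind it in Neg. With the longest transcript as the length the order was the same in both groups, and Tet3 was at 137 and Dnmt3a at 134 in WT High.

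None of the 8 genes differed between ΔHx and WT past the threshold. Within each gate and over the 3 gates together, 0 of 8 genes were called by limma, where 0.122% of all tested genes were called in High (0.0612% higher, 0.0612% lower), 0.401% in Mid (0.0748% higher, 0.326% lower), 0.245% in Neg (0.136% higher, 0.109% lower) and 0.843% over gates (0.421% higher, 0.421% lower). At an unadjusted p under 0.05 there was 1 gene in High (Dnmt1), 2 in Mid (Dnmt3a and Dnmt3l), 1 in Neg (Dnmt3a) and 1 over gates (Dnmt3a), out of 8 each time. Over all tested genes that share was 7.86% in High, 7.96% in Mid, 4.17% in Neg and 9.58% over gates. edgeR called 0 in each of the 4, and DESeq2 called 0 except for Dnmt3l in Mid. The tests of whether the genotype effect differed between 2 gates called 0 of 8 in all 3 pairs of gates (0%, 0.0068% and 0.0136% of all genes), with 1 gene, Dnmt3l between High and Mid, at an unadjusted p under 0.05 in all, and edgeR and DESeq2 called 0.

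**Figure D3:**
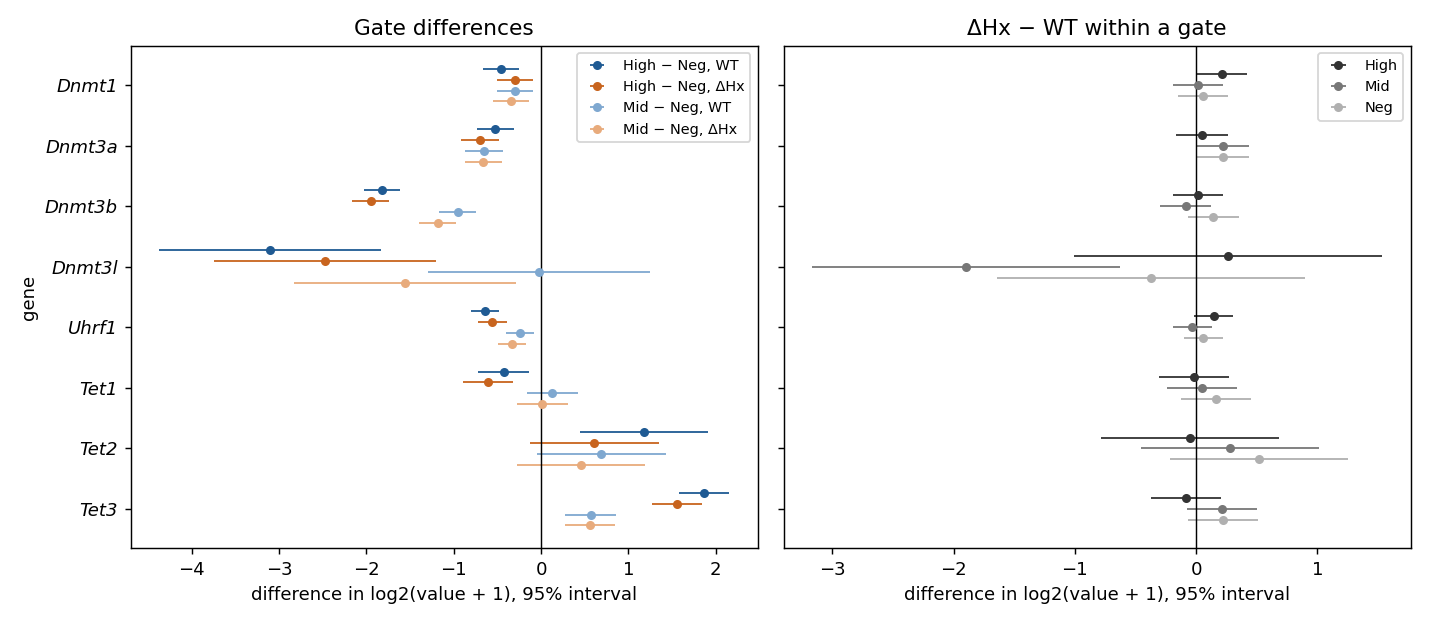
Differences in log2(value + 1) (x axis) with 95% intervals from limma for the 8 tested genes (y axis): between gates within each genotype on the left and between ΔHx and WT within each gate on the right, with a line at 0. Dnmt3b (-1.82 and -1.95 from Neg to High) and Tet3 (1.86 and 1.56) lie apart from 0 on the left, and on the right the interval of Dnmt3l in Mid (-3.17 to -0.63) is the one that lies farthest from 0.

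For Dnmt3b the interval of the difference between ΔHx and WT was -0.19 to 0.22 in High, -0.30 to 0.12 in Mid and -0.07 to 0.35 in Neg, so that differences larger than these bounds on the log2 scale lie outside the 95% interval. For Tet3 the intervals were -0.37 to 0.21, -0.07 to 0.50 and -0.07 to 0.51, and the Mid libraries of the 2 genotypes did not overlap, as was so for 10.9% of all genes in that contrast. Uhrf1 did not overlap in High (2723 to 3077 in WT, 3106 to 3357 in ΔHx, change 0.14, adjusted p = 0.671), also against 10.9% of all genes. Dnmt3a had a mean change of 0.16 over the 3 gates (95% interval 0.04 to 0.29, unadjusted p = 0.0123, adjusted p = 0.301). The log2 ratio of Dnmt3b to Dnmt3a was lower in ΔHx without overlap in Mid (2.41 ± 0.03 against 2.71 ± 0.11) and in Neg (2.93 ± 0.04 against 3.01 ± 0.03). The exact two-sided permutation p of the ratio was 0.1 in each of these gates, the smallest possible, and the adjusted p was 0.18. In Neg the levels of 12.7% of all single genes did not overlap between the genotypes, and no such share was computed for ratios. The Mid libraries of the 2 genotypes also differed in parietal endoderm markers, all 8 of which were called lower in ΔHx (median change -2.26). The part of that difference in the Mid values of Tet3, Dnmt3a and the ratio was not tested.

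Of the 8 genes Dnmt3l had the largest fitted difference between the genotypes in a gate. In Mid it stood at 162, 49.7 and 46.2 in WT and at 21.4, 32.2 and 9.12 in ΔHx, with no overlap. The change was -1.90 (SE 0.61, 95% interval -3.17 to -0.63, adjusted p = 0.287 in limma and 0.173 in edgeR, and 0.0384 in DESeq2). Over the alternatives the adjusted p was 0.0384 to 0.683. Without WT Mid replicate 1, the library at 162, the change was -1.32 (adjusted p = 0.679). Markers of parietal endoderm, an extra-embryonic cell type, moved beside it: all 8 fell in ΔHx Mid, and their summed value was 244823 in WT Mid replicate 1, 40665 and 64304 in the other 2 WT Mid libraries, and 16688 to 23152 in ΔHx Mid. No defining marker of that list was at 0 in either group. Its part in the Dnmt3l values was not tested.

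Genes that work with the 9 members were read from lists of related function. Of 11 tested genes of methyl donor supply 8 fell and 0 rose from Neg to High in WT, and 7 fell and 0 rose in ΔHx, with medians of -0.65 and -0.58. Mat2a, which makes the methyl donor S-adenosylmethionine, fell by 1.04 in WT (7673 ± 219 in Neg, 3736 ± 319 in High, adjusted p = 9.06e-08). Mat2b, its regulatory subunit, fell by 0.74 and Shmt2, a mitochondrial enzyme of folate metabolism, fell by 0.76. Of 16 tested partners and guides of methylation 4 fell and 3 rose in WT, and 5 fell and 2 rose in ΔHx, with a median of -0.0049 in WT, and over all tested genes 21.8% fell and 22.6% rose in WT. The 3 with the smallest adjusted p in WT all fell. Hells, a chromatin remodeller needed for methylation of repeats, fell by 1.34 (4519 ± 27.8 to 1798 ± 256, adjusted p = 7.84e-09), and Cdca7, its activator, fell by 1.57 (4409 ± 160 to 1507 ± 297, adjusted p = 1.41e-07). Kdm2b, which binds unmethylated CpG islands, fell by 0.80. The 3 that rose in WT, named after their values were seen, were Ogt (by 0.32), a glycosyltransferase that binds Tet proteins, Cxxc5 (by 0.46) and Nsd1 (by 0.28), a histone methyltransferase.

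The base excision repair list holds genes that act after Tdg, and also other DNA glycosylases and the Gadd45 stress-response genes. Of its 11 tested genes 4 fell and 1 rose from Neg to High in WT, and 4 fell and 2 rose in ΔHx. Apex1, the main abasic site endonuclease, fell by 0.90, Parp1, a sensor of strand breaks, by 0.54, and Gadd45g, a stress-response gene linked to demethylation, by 1.52. Of 9 tested readers of methylated CpG 1 rose and 0 fell in each genotype, and their median change was 0.42 in WT and 0.41 in ΔHx, against 0.02 and 0.01 over all tested genes. The called gene was Zbtb4, which rose by 3.08 in WT, from 5.39 ± 6.00 to 40.4 ± 6.08 (adjusted p = 0.000103). For comparison, 22.6% of all tested genes rose and 21.8% fell in the WT contrast.

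**Figure D4:**
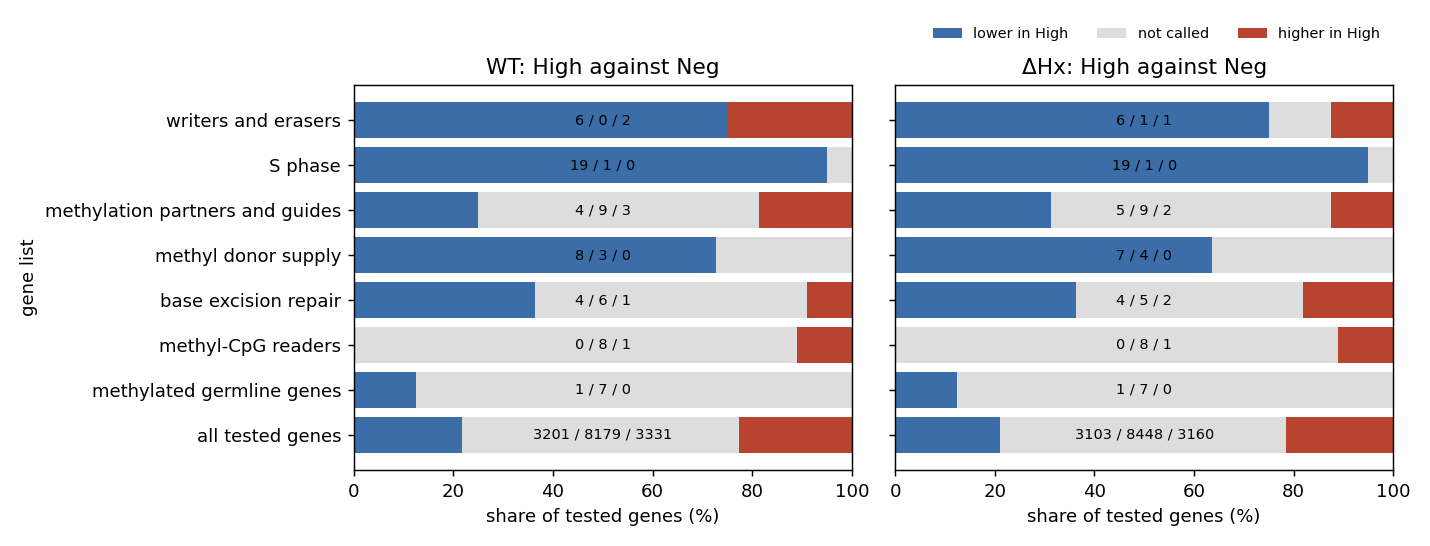
Shares of tested genes (x axis, percent) that were lower, not called or higher in High than in Neg, for the 8 tested writers and erasers, 6 related lists and all tested genes (y axis), in WT on the left and ΔHx on the right, with counts of lower, not called and higher genes printed in the bars. S phase (19 lower of 20) and methyl donor supply (8 lower of 11 in WT) lean to one side, while all tested genes divide into 3201 lower and 3331 higher in WT.

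The members also varied together over the 18 libraries, which differ in gate, genotype and cell makeup, so the following correlations are descriptions and carry no p. In log2(value + 1) Dnmt3b had a Pearson r of 0.95 with Uhrf1 and -0.94 with Tet3, and Tet1 had r = 0.27 with Dnmt1. Among 10602 tested genes with a mean of at least 50, those most like Dnmt3b were Ncl (r = 0.987), Slc7a3 (0.987) and Bop1 (0.986). Ncl encodes nucleolin and Bop1 a factor of ribosome assembly. Those most like Tet3 were Tmem107 (r = 0.980), Rfx3 (0.977) and Slit2 (0.977). Tmem107 is a protein of the ciliary transition zone and Rfx3 a transcription factor of ciliary genes. Mcm2, a subunit of the replicative helicase, was the second closest to Dnmt1 (r = 0.960), after Caprin1 (0.963) and before Ubap2l (0.958). The closest to Uhrf1 were Bzw2 (0.984), Hspa9 (0.975) and Mak16 (0.974), and the closest to Dnmt3a were Sac3d1 (0.943), Rragd (0.932) and Ydjc (0.929). For Tet1 they were Mtfp1 (0.906), Eif4g1 (0.896) and Atad5 (0.895), for Tet2 Wnk1 (0.904), Srcap (0.900) and Map3k7 (0.891), and for Dnmt3l Eif2b1 (0.923), Golt1b (0.916) and Robo2 (0.911).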

How the data were processed

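Gene counts of single-end SMART-Seq2 libraries, a method that does not record strand, were deposited as 1 table of signal: per the submitters' processing notes STAR 2.5.2a, HTSeq 0.6.1, DESeq and DESeq2 were used with mm10, while the gene annotation used for counting is not given in these sources. The authors' signal is the read count of a gene divided by 1 size factor per library. All 440964 of 440964 values were whole reads within 1e-06 reads, 1 read being worth 0.825 to 1.37, so reads were recovered for count tests. The 5 counter lines (no feature 7.17% to 12.1%, ambiguous 0.495% to 0.756%, not unique 37.7% to 41.3%) stayed out of tests. RNA equal to that of 1000 cells, from 2500 to 5000 sorted cells, was read for 75 bases, per the labels' protocols. The labels name biological replicates and do not say whether equal numbers shared a day or litter, so p-values measure only the spread between these samples.

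limma 3.58.1 in R 4.3.3 was fitted with a variance trend to log2(value + 1) of 14711 genes, in 1 model of 6 group means over all 18 libraries. Tests were two-sided, with Benjamini-Hochberg adjustment within each of 13 contrasts. Ratios were compared by exact permutation. Members and gene lists were chosen with earlier results of these data known. All 9 members are named. Up to 3 genes of each related list and 2 of a marker list are named by the smallest adjusted p from WT Neg to High, and the genes most like a member by Pearson r. Lengths and positions are from GENCODE M21, promoters from RefSeq. In a simulation of the High genotype comparison (14475 genes), 74 of 100 genes changed 2-fold and 95 of 100 changed 4-fold were recovered, with 7 false calls. The changed genes were drawn from those with a WT High mean of at least 50, which leaves out Dnmt3l (9.46). They also outnumbered the 18 genes called in the data, which eases the adjusted threshold, so recovery in the data may be lower. Alternatives were other pseudocounts and filters, quantile normalisation, equal totals with and without Rn45s, a fit of only the 2 groups, array weights, the replicate number as a block (also nested in genotype, added after seeing the data), edgeR 4.0.16, DESeq2 1.42.0, other lengths, and each library left out.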

Additional observations from a re-analysis of the deposited data

How the results depend on the processing

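Of 2406 results recomputed under an alternative, 2190 were labelled the same, 107 moved, 38 lost a call, 11 gained one and 60 turned their sign. Of the called values 0 turned. For the change of a gene, the same meant that its direction and its side of the threshold were kept. For a count of called genes it meant within a set ratio of the main count, so a single call could be lost or gained. A count outside that ratio was labelled moved. Ratios of members had no call to keep. Every call of Dnmt3a, Dnmt3b and Tet3 held. The number of the 8 genes called between WT Mid and Neg was 5, and it was 3 with quantile normalisation, 3 in a fit of only those groups, 7 with array weights and 3 to 6 on leaving out a library. DESeq2 called 1 gene between the genotypes in Mid, where limma called 0. The cause of these shifts was not tested. The median of all tested genes moved by -0.16 (WT Mid against Neg), 0.12 (WT High against Mid) and 0.13 (ΔHx High against Mid) with equal totals of all genes, by 0.11 (WT) and 0.10 (ΔHx, both High against Neg) with equal totals without Rn45s, and by -0.11 (WT High against Neg) with quantile normalisation.

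The values that turned their sign were small or of a gene with few reads, and none was called. Between the genotypes in High, Tet1 was 0.022 with equal totals, Dnmt3b was -3.459e-07 with equal totals without Rn45s and -0.10 with array weights, and Tet3 was 0.028 with array weights. In Mid, Uhrf1 was 0.011 with equal totals without Rn45s and Tet1 was -0.18 with array weights. Over gates, Dnmt3b was -0.057 and Tet1 -0.038 with array weights. From Neg to Mid, Tet1 was -0.034 in WT and -0.075 in ΔHx with equal totals and -0.023 in ΔHx with array weights, and Dnmt3l was 0.18 in WT with edgeR and 0.19 with DESeq2. From Mid to High in ΔHx, Dnmt3a was 0.0045 with quantile normalisation and 0.096 with equal totals, Tet2 was -0.0020 with quantile normalisation, and Dnmt1 was -0.011 with array weights.

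On leaving out 1 library, the genotype difference in High ranged from -0.0136 to 0.138 for Dnmt3a, -0.0636 to 0.132 for Dnmt3b, -0.413 to 0.708 for Dnmt3l, -0.117 to 0.0417 for Tet1, -0.183 to 0.0460 for Tet2 and -0.156 to 0.0413 for Tet3. In Mid it ranged from -0.0553 to 0.125 for Dnmt1, -0.127 to 0.180 for Tet1, -0.216 to 0.628 for Tet2 and -0.115 to 0.0307 for Uhrf1, and over gates from -0.00204 to 0.0630 for Dnmt3b. From Neg to Mid in WT, Dnmt3l ranged from -0.604 to 0.289 and Tet1 from -0.000292 to 0.306, and Tet1 in ΔHx from -0.0600 to 0.0723. From Mid to High, Tet2 in WT ranged from -0.0118 to 0.832, and in ΔHx Dnmt3a from -0.101 to 0.0507 and Dnmt1 from -0.00817 to 0.0798. For the log2 ratios, Dnmt3b to Dnmt3a ranged from -0.126 to 0.102 between the genotypes in High, Tet1 to Tet3 from -0.158 to 0.198 in High and -0.197 to 0.0263 in Neg, and Dnmt1 to Uhrf1 from -0.0230 to 0.0941 in Mid, -0.0437 to 0.0533 in Neg and -0.104 to 0.0128 from Neg to Mid in WT.

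With the replicate number as a block, the number of the 8 genes called was the same in all 13 contrasts (8 from Neg to High in WT, 7 in ΔHx, 0 between the genotypes). Libraries of equal number and the same genotype deviated together weakly. All 18 such pairs correlated above 0 and 5 above 0.1 (mean 0.0888, 0.0156 to 0.291). The mean over 36 pairs of other numbers in a genotype was -0.0442. Deviations were taken from each group mean, so the mean over other numbers follows from that over equal numbers and is not a separate comparison. Between the genotypes, equal numbers had a mean of -0.0281 over 27 pairs. The labels do not say what a number shares, so the block was also nested within genotype, an alternative chosen after seeing the data. As a fixed block it left the number of the 8 genes called the same in all 6 gate contrasts and all 3 tests of genotype effects. As a random effect (estimated correlation 0.131) it added Dnmt3l from Neg to Mid in ΔHx, 6 genes in place of 5, and changed no other count of the 8. Over gates the genotype calls among all genes were then 65 in place of 124. Tdg had 0 to 3 reads per library and Dnmt3l stood at 2.40 to 15.1 in WT High, so their values carry a large counting error.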

Other observations

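Genes known to be held silent by promoter methylation in somatic cells, mostly genes of the germline, were read as a further list. Of 14 such genes 8 were tested, and most were low: their summed value was 635 to 978 in WT High, 2478 to 3022 in WT Mid and 580 to 983 in WT Neg, and Mael and Asz1 were at 0 in WT High. Rhox5, a homeobox gene of placenta and germline, held most of the sum in Mid. It stood at 2285 ± 139 in WT Mid and 425 ± 157 in WT Neg (adjusted p = 1.83e-05 in limma), and at 2590 ± 470 and 289 ± 85.1 in the same gates of ΔHx (log2 change 3.18, adjusted p = 1.21e-06). Slc25a31, an ADP/ATP carrier of the testis, rose from Neg to Mid in WT (5.71 ± 3.97 to 49.4 ± 29.1, log2 change 2.92, adjusted p = 0.000618), and in ΔHx the change of 0.90 was not called (adjusted p = 0.234). Visceral endoderm markers moved with the Mid gate (WT Mid libraries summed to between 37747 and 46277, those of WT Neg to between 1463 and 1627), and their part in these values was not tested. Sycp3, of the synaptonemal complex, fell by 1.67 from Neg to High in WT (adjusted p = 0.00497). Both Rhox5 and Slc25a31 were named here after their values were seen.

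Sycp1, another gene of the synaptonemal complex, was the only gene of the related lists called between the genotypes. Over the 3 gates it fell by 2.89 in ΔHx (adjusted p = 0.00775 in limma), and it was called in no single gate. It stood at 34.5 ± 8.31 in WT High, 38.6 ± 47.4 in WT Mid and 48.3 ± 4.33 in WT Neg, and at 4.49 ± 4.54, 7.47 ± 6.38 and 4.06 ± 3.73 in ΔHx.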
